A study of Drosophila melanogaster with 36 samples.

Results

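The data described here are the 4 two-colour arrays on which RNA of phenobarbital-fed Drosophila melanogaster larvae was hybridised against RNA of control larvae, out of 36 arrays in the series. All 159 genes to which the array's probe annotation gives a single symbol were described, and none was left out for a low value. Both pools came from 3rd instar larvae of the y; cn bw sp strain, which carries marker mutations affecting body and eye colour, at 4.5 days after laying and 25 °C. The exposed larvae were kept for 4 h on food with 10 mM phenobarbital, and the control larvae on the same food without it. Each pool held RNA of 400 whole larvae, from 8 samples of 50 each, so the 4 arrays are technical repeats of 1 pair of pools. Their tests compare these 2 RNA pools against the error between arrays and do not measure the spread between cultures. The exposed pool carried the red dye Cy5 on arrays 1 and 3 and the green dye Cy3 on arrays 2 and 4. Other groups used for comparison were larvae given caffeine at 1.5 mg/ml, adult males kept in vials coated with 10 µl of phenobarbital stock, and larvae given the insecticides diazinon, dicyclanil, lufenuron, spinosad or nitenpyram. All were of the same strain, were exposed for 4 h, and had control pools of their own.

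Phenobarbital is a barbiturate that is widely used in insects and vertebrates as a general inducer of detoxification enzymes. Cytochrome P450s are haem enzymes that oxidise foreign compounds and hormones, glutathione S-transferases (GSTs) join glutathione to reactive products, and esterases split esters, so the 3 families act at successive or parallel steps of clearance. In Drosophila this clearance takes place largely in the midgut, the Malpighian tubules and the fat body, and the response to foreign compounds runs in part through the transcription factor CncC with its inhibitor Keap1 and through the nuclear receptor DHR96, whose own genes were not analysed here. P450s of insects fall into the CYP3 and CYP4 clans, which hold most of the genes tied to foreign compounds, and the CYP2 and mitochondrial clans, which include enzymes of the moulting hormone. Insect GSTs of the delta and epsilon classes are the ones most often tied to insecticides.

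Every value below is a log2 ratio of exposed over control larvae, relative to the median named gene of the same array. The labels do not say which dye stood on top of the deposited ratio. Red over green, the usual convention, was taken, and with the opposite direction every higher and lower would swap. Before the ratios were turned, arrays of opposite dye orientation correlated across genes at r = -0.70 to -0.60. After turning, arrays 1 and 3 correlated at r = 0.97, arrays 2 and 4 at r = 0.94, and arrays of opposite orientation at 0.60 to 0.70. These correlations are across genes of 1 pool pair, which are not independent replicates. Between 633 and 641 of the 656 spots of named genes gave a ratio on each of the 4 arrays. Signal intensities were not used here, so the precision is limited by the number of arrays and the strength of signal over background is not known.

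Phenobarbital larvae differed from control larvae at 69 of the 159 genes (43.4%), called at an adjusted p under 0.05 in limma and a ratio of at least 1.5-fold. Of these, 36 genes (22.6%) rose and 33 (20.8%) fell relative to the median gene. The rises were the larger: 31 reached 2-fold, 18 reached 4-fold, 7 reached 8-fold and 2 reached 16-fold, whereas 8 of the falls reached 2-fold and 1 reached 4-fold. P450s made up 25 of the 36 genes that rose and GSTs another 10, out of 85 P450s and 35 GSTs among the 159 genes. The 36th was the small heat shock gene Hsp22, and 0 of the 17 esterases rose. The median ratio of all 159 genes was -0.15.

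How many genes fell depended on the zero point. Without centring, the median named gene, as exposed over control, stood at -0.22 and -0.39 on arrays 1 and 3. On arrays 2 and 4 it stood at 1.79 and 1.95, so uncentred values did not share a zero point between dye orientations. All 36 higher calls held when the arrays were left uncentred, centred on all spots or centred on ribosomal protein and Gapdh1 genes, while only 2 of the 33 lower calls did, those of Cyp310a1 and Cyp311a1. The split between higher and lower calls was 54 and 2 on uncentred values, 41 and 13 after centring on all spots, 67 and 3 after centring on the ribosomal protein and Gapdh1 genes, and 31 and 15 with the arrays scaled to the same spread. The median of all genes moved to 0.63, 0.08 and 0.56 in the first 3 of these settings. A fall below therefore is measured against the middle of a gene set of which 36 members rose. RNA of whole larvae was measured, so fewer cells of a type and less RNA per cell cannot be told apart.

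**Figure D1:**
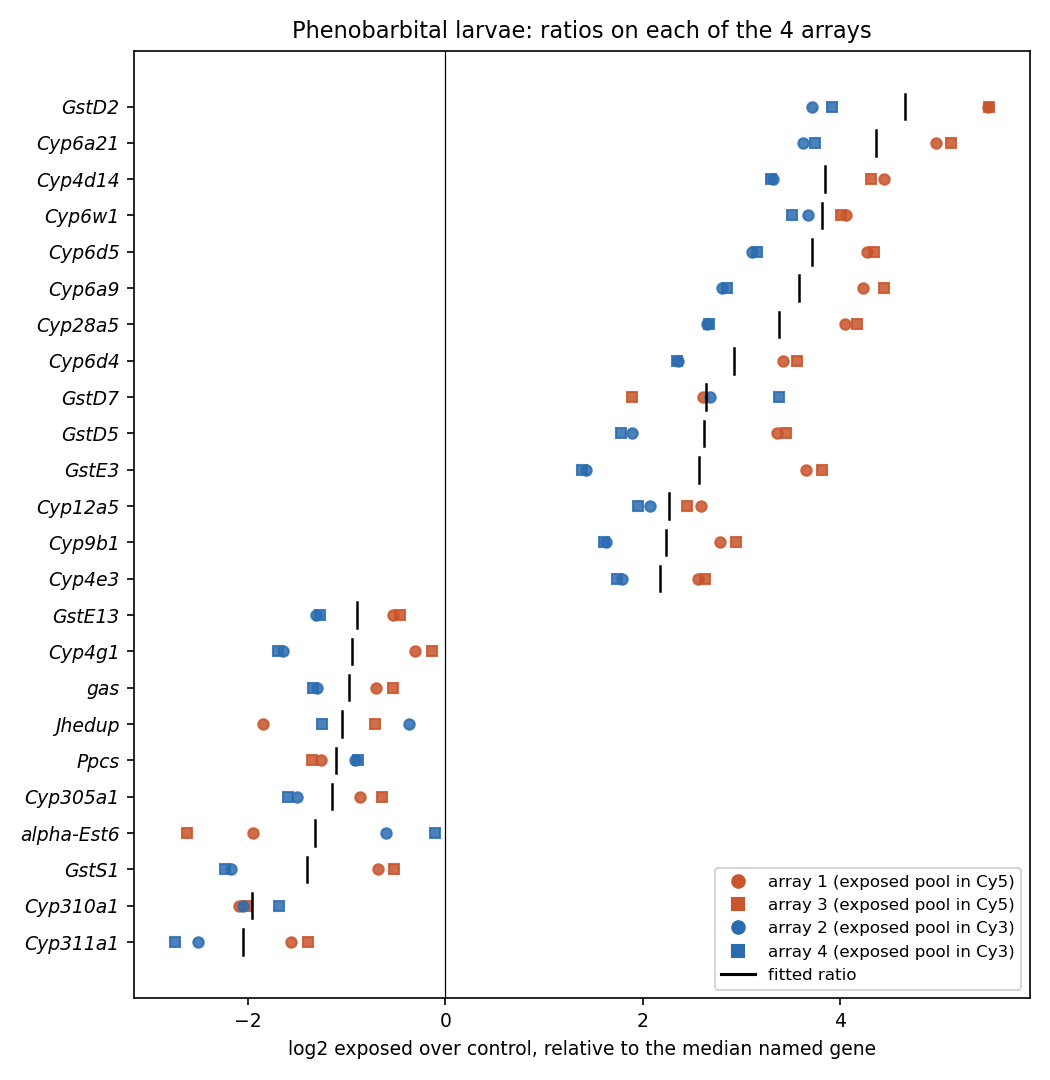
Log2 ratio of exposed over control larvae (x axis, relative to the median named gene) on each of the 4 arrays for the 14 highest and the 10 lowest genes called in the same direction on every array. Points are single arrays, orange where the exposed pool carried Cy5 and blue where it carried Cy3, and black bars are fitted ratios; GstD2 is highest at 4.66 and Cyp311a1 lowest at -2.05.

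GstD2 and the Cyp6a21 gene stood at the top of the array. GstD2, a delta class GST, had log2 ratios of 5.50, 3.71, 5.51 and 3.92 on arrays 1 to 4. Its fitted ratio was 4.66 ± 0.20 or 25.3-fold, with a limma adjusted p of 2.14e-18. Here and below, ± is the SE of the fit. Its array error was estimated over the 34 arrays of all groups, and not from these 4 arrays alone. Cyp6a21, a CYP3 clan P450, had 4.97, 3.62, 5.13 and 3.75, a fitted 4.37 ± 0.18 or 20.6-fold. For both genes the arrays with the exposed pool in Cy5 gave the higher values, and no array of either gene lay below 3.62.

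The CYP3 clan, which holds the P450s most often tied to drugs and insecticides, had a median of 0.52 against -0.15 over all 159 genes. Of its 38 genes, 15 were higher and 1 lower, against 22.6% and 20.8% over all genes. Within the clan the Cyp6a subfamily had 8 of 14 genes higher and 0 lower, and all 8 were above 0 on every array. Cyp6a9 had 4.23, 2.80, 4.45 and 2.85 on arrays 1 to 4, a fitted 3.58 ± 0.20 or 12-fold (limma adjusted p 7.71e-16). Cyp6a2, whose product oxidises several insecticides in vitro and which is a long-known phenobarbital responsive gene of the fly, had 1.36, 3.08, 3.31 and 0.84. These scatter widely without a split by dye, and the fitted ratio was 2.15 ± 0.36 (4.43-fold). Single spots ran between -2.95 and 3.38. Cyp6a8, another gene known for its response to phenobarbital and caffeine, had 1.52, 2.49, 1.25 and 2.50, a fitted 1.94 ± 0.28. Unlike most of the strong responders, Cyp6a8 read higher with the exposed pool in Cy3. The further genes that rose were Cyp6a22 at 1.68, Cyp6a17 at 1.68, Cyp6a23 at 1.41 and Cyp6a13 at 1.29. The lowest of the subfamily, Cyp6a18, was not called at 0.07, -0.74, 0.07 and -0.72 on the 4 arrays and a fitted -0.33 ± 0.26, or 0.45 on uncentred values. The pseudogenes Cyp6a15Psi and Cyp6a16Psi were not called either, at 0.03 and -0.19.

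Outside Cyp6a the clan's strongest genes were Cyp6w1, Cyp6d5, Cyp28a5 and Cyp6d4. Cyp6w1 had 4.07, 3.68, 4.01 and 3.51, a fitted 3.82 ± 0.16 or 14.1-fold. It showed the closest match between dye orientations among these 4 genes. Cyp6d5 had 4.28, 3.10, 4.35 and 3.16, a fitted 3.72 ± 0.17 or 13.2-fold, and Cyp6d4 had 3.42, 2.36, 3.56 and 2.35, a fitted 2.92 ± 0.16 or 7.59-fold. The subfamily's remaining member was not called: Cyp6d2 had -0.01, -0.55, 0.10 and -0.68, a fitted -0.28 ± 0.17, and 0.49 on uncentred values. Cyp28a5 had 4.05, 2.65, 4.17 and 2.67, a fitted 3.38 ± 0.15 or 10.4-fold (limma adjusted p 6.76e-18). Its family is known from the cactus-feeding Drosophila mettleri, where related genes respond to host plant alkaloids and to phenobarbital. The other 3 Cyp28 genes were not called, and the lowest, Cyp28d2, had -1.42, -0.68, -1.21 and -0.71, below 0 on every array but with a wide SE of 0.56.

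Cyp9b1 had 2.78, 1.62, 2.94 and 1.61, a fitted 2.24 ± 0.30 or 4.72-fold, while its paralogue Cyp9b2 reached 0.77. The remaining 3 Cyp9 genes were not called, with Cyp9f2 lowest at 0.38, -1.02, 0.54 and -1.12 on the 4 arrays, a fitted -0.30 ± 0.21 and 0.48 on uncentred values. Cyp6g1, the gene whose overexpression gives DDT resistance in many fly populations, had 1.99, 1.27, 2.17 and 1.28, a fitted 1.68 ± 0.22 or 3.2-fold. The 1 gene of the clan that fell was Cyp310a1, with -2.09, -2.06, -2.01 and -1.69. Its fitted ratio was -1.96 ± 0.23, a 3.89-fold fall (limma adjusted p 2.1e-08) in which the 4 arrays lay close together. Its single spots did not: they ran between -3.43 and 0.70, and 13 of its 16 spot places gave a value.

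The CYP4 clan had 6 of 32 genes higher and 5 lower, both smaller shares than the 22.6% higher and 20.8% lower over all genes. Its median was -0.12, and 0.66 on uncentred values. Cyp4d14 had 4.45, 3.32, 4.31 and 3.30, a fitted 3.84 ± 0.20 or 14.4-fold (limma adjusted p 2.87e-16), the largest rise of the clan. The other Cyp4d gene that rose was Cyp4d8 at 0.59, which was near 0 on arrays 1 and 3. The lowest Cyp4d gene, Cyp4d21, was not called at -0.43, 0.16, -0.50 and 0.09, a fitted -0.17 ± 0.43. Cyp4e3 had 2.56, 1.79, 2.63 and 1.73, a fitted 2.18 ± 0.16, and Cyp4e2 reached 2.08 ± 0.17. Their relative Cyp4e1 had -0.05, -0.04, -0.10 and 0.14, a fitted -0.01 ± 0.23 that lay within its error of the median gene. Cyp4ae1 reached 2.08 ± 0.21 as a mean of spots that ran between -0.35 and 4.63, 10 above 0 and 6 below. Cyp4p1 had 1.73, 0.96, 3.00 and 0.65, a fitted 1.58 ± 0.24 or 3-fold, whereas Cyp4p3 had -0.55, -1.08, 0.13 and -1.15, a fitted -0.66 ± 0.21 that was 0.12 on uncentred values. None of the 3 Cyp4ac genes was called: the highest, Cyp4ac1, had 0.10, 0.00, 0.21 and 0.21 and the lowest, Cyp4ac2, had -0.59, -0.49, -0.26 and -0.35.

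Cyp311a1 fell furthest of all genes, with -1.56, -2.51, -1.40 and -2.74 on arrays 1 to 4. Its fitted ratio was -2.05 ± 0.17, a 4.15-fold fall (limma adjusted p 1.47e-11), and it was lowest on the arrays with the exposed pool in Cy3. Cyp4g1, the P450 of the oenocytes that makes cuticular hydrocarbons, had -0.31, -1.64, -0.14 and -1.70, a fitted -0.95 ± 0.23. Both orientations were below the median gene, but arrays 2 and 4 lay well below arrays 1 and 3, and the ratio was -0.17 on uncentred values. Cyp316a1 at -0.75 and Cyp4s3 at -0.63 were the other genes of the clan that fell.

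Mitochondrial P450s of the Cyp12 family rose at 4 of 5 genes, against 22.6% over all genes. Cyp12a5 had 2.59, 2.07, 2.45 and 1.95, a fitted 2.27 ± 0.34 or 4.81-fold. Cyp12c1 reached 1.53 ± 0.13, with the 4 array means between 1.49 and 1.58. Its single spots lay far apart behind these means, between -0.51 and 3.80, with 9 above 0 and 7 below. Cyp12a4, whose overexpression is known to give lufenuron resistance, reached 0.85, with array 4 at -0.01. Cyp12b2 reached 0.71, with spots from -3.23 to 2.98. The fifth, Cyp12e1, was not called at 0.97, -0.42, 1.16 and -0.65: it was positive with the exposed pool in Cy5 and negative with it in Cy3.

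P450s of moulting hormone synthesis had 0 of 5 genes called higher and 1 lower, against 22.6% and 20.8% over all genes. The gene called lower was spo, a CYP2 clan gene of the pathway, which fell to -0.83 ± 0.17, or -0.05 on uncentred values. The lowest was phtm, with -1.79, -0.50, -1.48 and 0.09 and a fitted -0.92 ± 0.56 that did not pass the test. The mitochondrial hydroxylases dib and sad had -0.02, -0.22, -0.23 and -0.09 and -0.56, -0.72, -0.44 and -1.07, fitted ratios of -0.14 ± 0.36 and -0.70 ± 0.32, and were not called. The gene shd, whose product converts ecdysone to its active form, had 0.38, -0.29, 0.61 and -0.48, a fitted 0.06 ± 0.17. Cyp18a1, which breaks the active hormone down, had 1.14, 0.48, 1.14 and 0.67, all above 0, and a fitted 0.86 ± 0.37 (limma adjusted p 0.054). The remaining CYP2 clan gene that fell was Cyp305a1, with -0.87, -1.51, -0.65 and -1.60 and a fitted -1.16 ± 0.40.

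**Figure D2:**
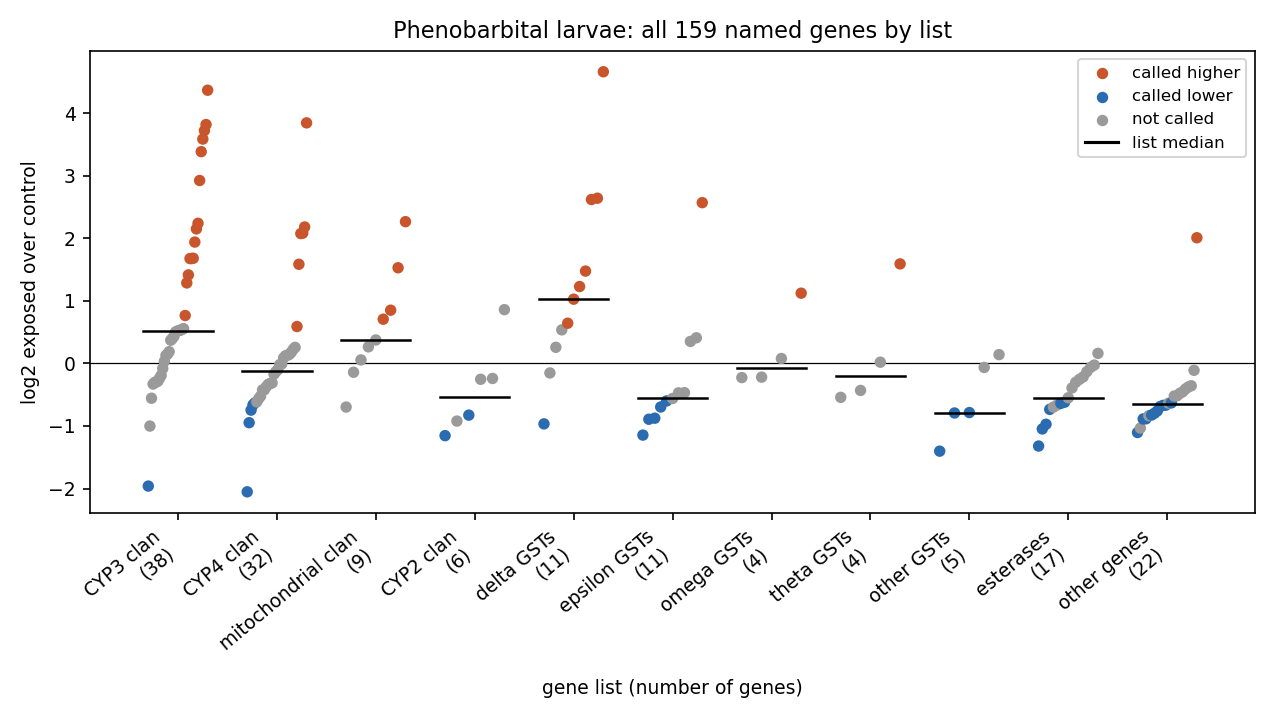
Fitted log2 ratio of exposed over control larvae (y axis) for each of the 159 named genes, grouped by gene list (x axis, number of genes in brackets), with black bars at the list medians. Orange points were called higher, blue points lower and grey points not called; 15 of 38 CYP3 clan genes and 7 of 11 delta GSTs are orange, and 0 of 17 esterases.

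GSTs had 10 of 35 genes higher and 9 lower, shares close to the 22.6% and 20.8% over all genes. The median of the 35 was -0.07, and it was 0.71 on uncentred values. Delta GSTs rose at 7 of 11 genes and fell at 1, with a median of 1.03. The other zero points all raised this median, and with the arrays scaled to the same spread it was 0.74. After GstD2, the highest were GstD7 and GstD5. GstD7 had 2.62, 2.68, 1.89 and 3.38, a fitted 2.64 ± 0.42 or 6.24-fold with an error wider than that of GstD2, and the 2 highest of its values came with the exposed pool in Cy3. Its spots ran between -1.72 and 4.20. GstD5 had 3.36, 1.89, 3.45 and 1.78, a fitted 2.62 ± 0.22 or 6.14-fold. GstD6 at 1.48, GstD4 at 1.23, GstD10 at 1.03 and GstD3 at 0.64 also rose. GstD1, whose product removes chlorine from DDT and which earlier literature lists as inducible, had 1.26, -0.23, 1.36 and -0.25. It was positive with the exposed pool in Cy5 and negative with it in Cy3, and its fitted 0.54 ± 0.21 or 1.45-fold fell short of the 1.5-fold threshold. The 1 delta gene that fell, GstD11, had -2.24, 0.18, -2.56 and 0.75, a fitted -0.97 ± 0.21 from arrays that also stood on both sides of 0. Near-identical members of this cluster may share probe signal, which was not tested.

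Epsilon GSTs were higher at 1 of 11 genes and lower at 5, against 22.6% and 20.8% over all genes. Their median was -0.56, although on uncentred values 3 were higher, 0 lower and the median 0.22. The exception was GstE3, with 3.65, 1.42, 3.82 and 1.38, a fitted 2.57 ± 0.21 or 5.93-fold (limma adjusted p 1.72e-11). Its arrays split by dye more than those of any other of the 14 highest genes, and all 4 were above 0. The lowest was GstE10, with -1.69, 0.00, -1.37 and -1.52, a fitted -1.15 ± 0.28. GstE13 had -0.53, -1.31, -0.46 and -1.27, a fitted -0.89 ± 0.16. GstE12 at -0.88, GstE8 at -0.70 and GstE9 at -0.60 also fell. GstE14, which acts in ecdysteroid synthesis in the prothoracic gland, was not called at -0.56 ± 0.27.

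Among the smaller classes, GstO3 had 1.70, 0.46, 1.87 and 0.46, a fitted 1.12 ± 0.26 or 2.18-fold, and was the 1 omega GST of 4 that rose. The omega gene se, whose product makes a precursor of the red eye pigments, had -0.52, 0.44, -1.23 and 0.40 and a fitted -0.23 ± 0.25. GstT4 rose among the 4 theta GSTs, with 2.02, 1.21, 2.08 and 1.05 and a fitted 1.59 ± 0.21 or 3.01-fold, while GstT2 was not called at -0.27, -0.78, -0.24 and -0.88, a fitted -0.54 ± 0.16. Of the 5 other GSTs, 3 fell. GstS1, the sigma class enzyme abundant in flight muscle that clears lipid peroxidation products, had -0.68, -2.17, -0.52 and -2.24. Its fitted -1.40 ± 0.23 was a 2.65-fold fall, deeper on the arrays with the exposed pool in Cy3, and it was -0.62 on uncentred values. GstZ1, of the class that acts in tyrosine breakdown, fell to -0.79 and gfzf to -0.79. The microsomal enzyme Mgstl was not called, with 0.98, -0.86, 1.18 and -0.74 on the 4 arrays.

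Esterases fell at 6 of 17 genes and rose at 0, against 20.8% lower and 22.6% higher over all genes. Their median was -0.55, but on uncentred values 2 were higher, 0 lower and the median was 0.23. The alpha-esterases, a family that in the blowfly Lucilia cuprina holds the organophosphate resistance gene, fell at 2 of 8 genes, a share near the 20.8% over all genes, and at 0 on uncentred values, where the median was 0.34 against -0.44 as centred. The lower, alpha-Est6, had -1.95, -0.60, -2.62 and -0.11, a fitted -1.32 ± 0.44, with the deepest values on the arrays with the exposed pool in Cy5. The other was alpha-Est5 at -0.62. The highest of the family, alpha-Est3, was not called at 0.47, -0.17, 0.60 and -0.26, a fitted 0.16 ± 0.24. Jhedup, a duplicate of the juvenile hormone esterase gene, had -1.85, -0.37, -0.72 and -1.25, a fitted -1.05 ± 0.23. This fall turned to 0.11 when the ceiling code was kept as a value. The gene gas had -0.70, -1.30, -0.54 and -1.35, a fitted -0.97 ± 0.20. Nlg1, which encodes a synaptic adhesion protein related to esterases, fell to -0.73, and clt fell to -0.64. Ace, the acetylcholinesterase gene that organophosphates and carbamates target, was not called at -0.03 ± 0.20.

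Of the 22 remaining genes, 1 rose and 10 fell, against 22.6% and 20.8% over all genes. Hsp22, a small heat shock protein of mitochondria, had 2.38, 1.61, 2.48 and 1.56, a fitted 2.01 ± 0.22 or 4.02-fold (limma adjusted p 7.83e-09). The other small heat shock genes did not rise with it. Hsp27 had -0.64, -0.79, -0.67 and -1.09, a fitted -0.80 ± 0.17, and fell, while Hsp26 was not called at -0.36 ± 0.13. Ppcs, which acts in coenzyme A synthesis, had -1.26, -0.91, -1.35 and -0.89, a fitted -1.10 ± 0.17 with all 4 arrays close together. Carbonic anhydrase gene CAH1 fell to -0.82 and Gdap1 to -0.89, while CAH8 was not called at -0.52 ± 0.34.

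Genes often used as steady controls stood below the median gene. Gapdh1 had -0.29, -1.51, -0.19 and -1.55 and a fitted -0.89 ± 0.19, and RpS21 had 0.03, -1.22, 0.00 and -1.33 and a fitted -0.63 ± 0.16. RpS20 and RpL10Aa were at -0.67 and -0.67. All 4 were called lower with the median named gene as zero point and 0 of the 4 on uncentred values, where their median was 0.11.

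**Figure D3:**
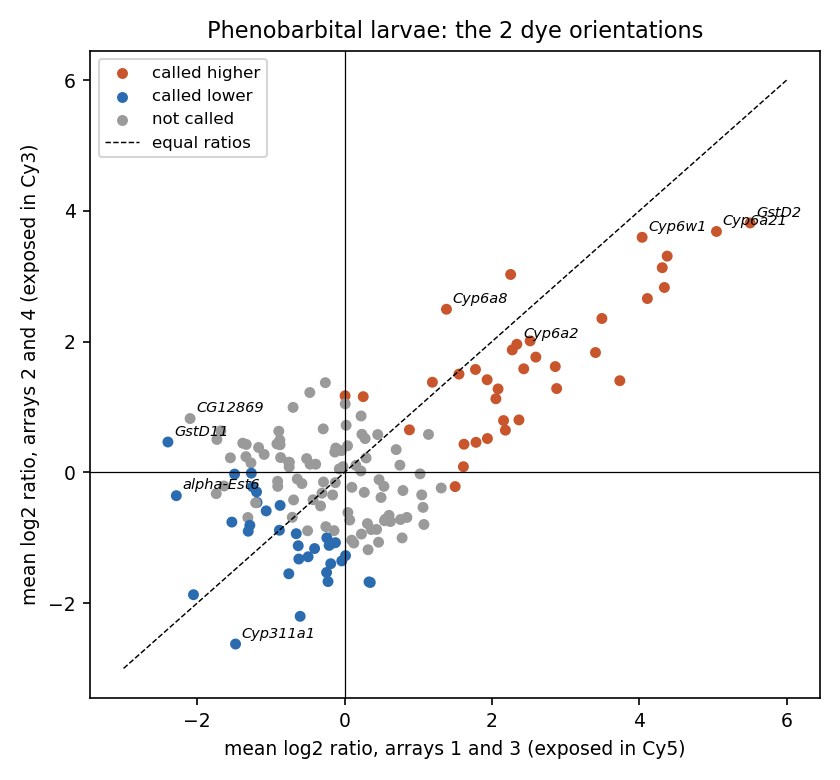
Mean log2 ratio of exposed over control larvae on arrays 1 and 3 (x axis, exposed pool in Cy5) and on arrays 2 and 4 (y axis, exposed pool in Cy3) for the 159 named genes; the dashed line marks equal ratios. Called genes are orange (higher) or blue (lower); the genes farthest to the right are called higher and lie above 0 in both orientations, while 63 genes lie on opposite sides of 0 and 5 of these were called.

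The dye orientations gave different sizes for many genes. The mean of arrays 1 and 3 minus that of arrays 2 and 4 had a median of 0.33 log2 units over all genes and ran between -2.92 and 2.33. It was positive for most of the 14 highest genes and ran between -0.77 and 2.33 among them. The sign differed between orientations for 63 of the 159 genes, of which 5 were called. On every array, 33 of the 36 higher genes were above 0 (20.8% of all genes) and 24 of the 33 lower genes below 0 (15.1% of all genes). The 12 called genes with a change of sign between arrays were Cyp12a4, Cyp4d8 and GstD3 among those that rose, and CG4757, Cyp4p3, GstD11, GstE10, GstE8, RpL10Aa, RpS20, RpS21 and clt among those that fell. At the level of single spots, 26 of the 36 higher genes and 13 of the 33 lower genes had every spot value of the 4 arrays on the same side of 0.

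Part of the deposited ratios were coarse. Between 9.9% and 17.5% of the named spot values on these arrays equalled, to 3 decimals, the log2 of a ratio of whole numbers from 1 to 10. The median share per gene was 0.0% among the 36 genes that rose, 6.2% among the 33 that fell and 12.5% among the 90 not called. No such value was present in 24 of the genes that rose, 11 of those that fell and 19 of those not called. The part of this in the calls was not tested.

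Few genes that mark a cell type were on the array. The oenocyte gene Cyp4g1 fell, as given above. Of the prothoracic gland genes, spo was called lower at -0.83, as given above. The others, phtm, dib and sad, were not called, with ratios from -0.92 to -0.14. The male reproductive tract genes Est-P and Est-Q were at -0.39 and -0.30 and were not called. Their part in the other results was not tested. The array held no list of genes for the larval stage, so the stage was taken from the labels alone.

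Many of the genes that rose lay in chromosomal clusters. In the RefSeq annotation, 66 of the named genes lay in 14 clusters of at least 3 genes with starts no more than 20 kb apart. Of these 66 genes, 24 rose and 9 fell, and of the 93 genes outside the clusters, 12 rose and 24 fell. Over all 159 genes, 22.6% rose and 20.8% fell. The clusters include Cyp6a and delta GST genes counted above, so these counts are not a separate result. In the cluster from Cyp6a22 to Cyp6a8, 6 of 8 genes rose and 0 fell, with ratios between 0.40 and 4.37. The 2 that were not called, Cyp6a19 at 0.40 ± 0.33 and Cyp6a20 at 0.43 ± 0.20, stand on either side of Cyp6a9. In the delta GST cluster the ratios in chromosomal order were 1.03 for GstD10, 0.26 for GstD9, 0.54 for GstD1 and 4.66 for GstD2. They went on with 0.64 for GstD3, 1.23 for GstD4, 2.62 for GstD5, 1.48 for GstD6 and 2.64 for GstD7, and ended with -0.15 for GstD8 and -0.97 for GstD11. The highest member, GstD2, thus stands between GstD1 and GstD3, which are among the lower ones.

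Elsewhere single genes stood out of their cluster. In the cluster from GstE10 to GstE9, GstE3 was the 1 of 7 genes that rose and 3 fell, against 22.6% and 20.8% over all genes. Cyp4d14 and Cyp4ae1 rose beside Cyp4d1 at 0.18 and Cyp4d2 at 0.26, which were not called. Cyp4e2 at 2.08 lay between Cyp4ad1 at -0.42 and Cyp4e1 at -0.01. Cyp6g1 rose beside Cyp6g2 at -0.56 and Cyp6t3 at 0.56, which were not called. Hsp22 rose beside Hsp26 and Hsp27, and GstO3 beside se, GstO2 at -0.22 and GstO1 at 0.08. Ppcs fell next to Cyp12a5 and Cyp12a4, both of which rose.

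**Figure D4:**
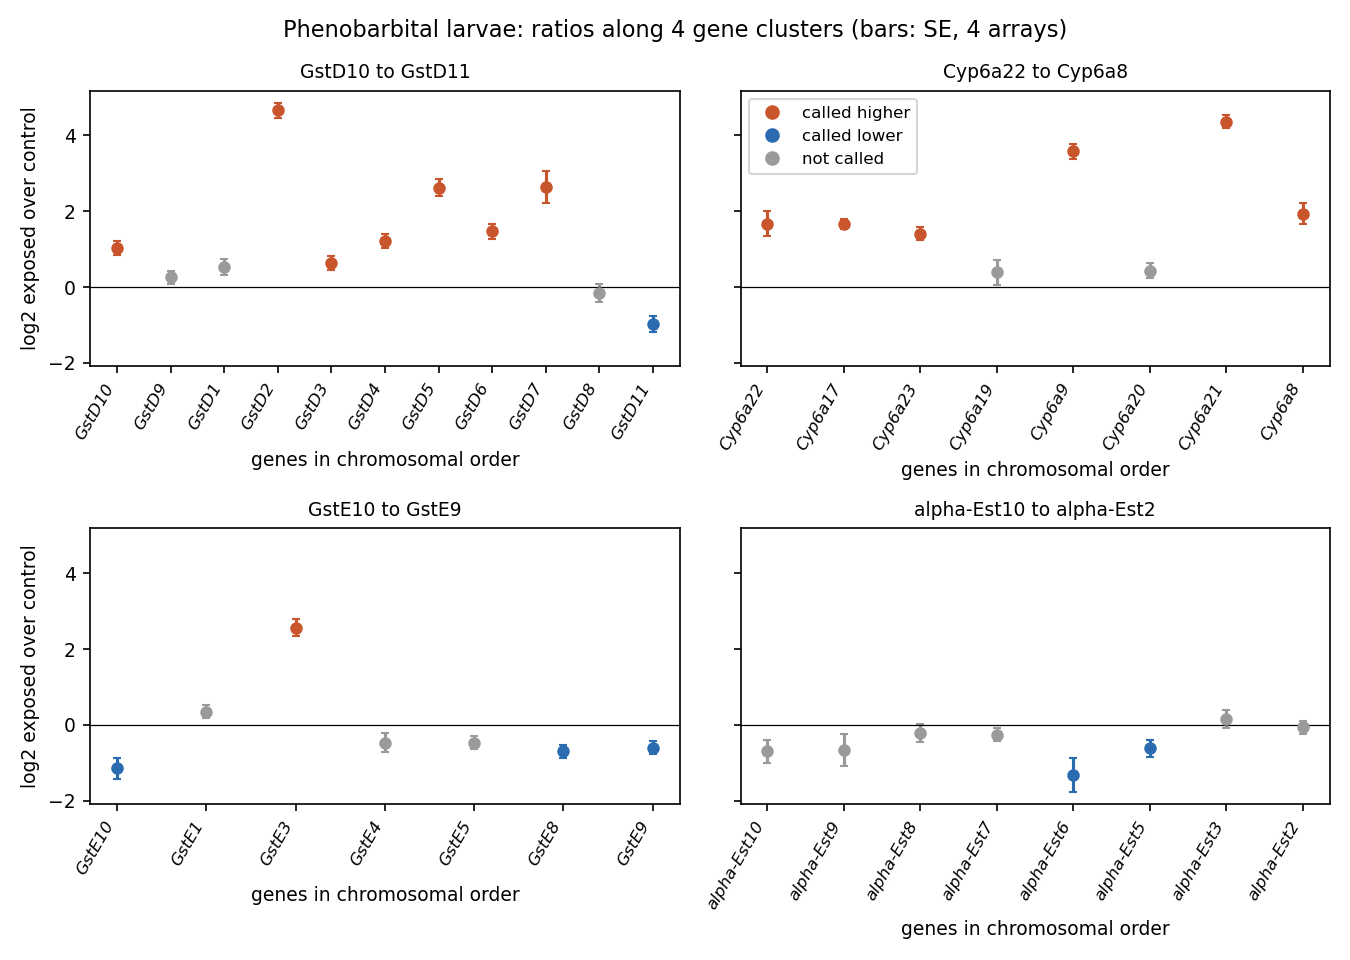
Fitted log2 ratio of exposed over control larvae (y axis) for the genes of 4 clusters in chromosomal order (x axis). Bars show 1 SE of the fit, whose array error was estimated over all groups. Orange genes were called higher, blue lower and grey not called; GstD2 at 4.66, Cyp6a21 at 4.37 and GstE3 at 2.57 are the peaks of their clusters, and no alpha-esterase is orange.

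Phenobarbital was then set against caffeine, the other general inducer given to larvae. The doses, 10 mM phenobarbital and 1.5 mg/ml caffeine, are in different units and were not matched. At 37 of 159 genes (23.3%) the log2 ratio differed between phenobarbital and caffeine larvae, 24 (15.1%) higher and 13 (8.18%) lower in phenobarbital larvae. Of the 24, 14 held in every centring, and of the 13, 0 did. Delta GSTs made up 7 of the 24, which is 7 of the 11 delta GSTs on the array. GstD2 was at 4.66 in phenobarbital larvae and at 0.85 in caffeine larvae, with caffeine arrays at 1.49, 0.28, 1.41 and 0.24. The difference was 3.81 ± 0.28 or 14-fold (limma adjusted p 3.41e-12), and every phenobarbital array was above every caffeine array. Cyp4d14 was at 3.84 against 0.76 in caffeine larvae and Cyp28a5 at 3.38 against 0.37, differences of 3.08 ± 0.28 and 3.01 ± 0.21. Cyp6a21 at 4.37 against 1.64, Cyp6a9 at 3.58 against 0.98, GstD5 at 2.62 against 0.22 and Cyp4e3 at 2.18 against -0.02 followed, each with the difference held in every centring. GstD7, at 2.64 against 0.55, was the last of the 8 largest, and its call did not hold in every centring.

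Other strong responders to phenobarbital were high with caffeine too. Cyp6d5 was at 3.72 in phenobarbital larvae and 3.30 in caffeine larvae, a difference of 0.42 ± 0.25 with a 95% interval of -0.08 to 0.93 that did not pass the test. Cyp6w1, at 3.82 against 3.01, was called higher in phenobarbital larvae by 0.80 ± 0.23, a call lost on uncentred values. Cyp6a2, at 2.15 against 1.51, was not called, with an interval of -0.42 to 1.70. Cyp6a8 was lower in phenobarbital larvae, at 1.94 against 3.05, a difference of -1.11 ± 0.40 (limma adjusted p 0.0437). This call was lost on uncentred values and after centring on all spots or on the ribosomal protein and Gapdh1 genes. Cyp4p3 at -0.66 against 0.62 and GstE1 at 0.35 against 1.22 were lower too. The other 5 of the 8 largest differences in this direction were Cyp311a1 at -2.05 against -0.62, Ppcs at -1.10 against -0.05, GstD11 at -0.97 against -0.02, Gdap1 at -0.89 against -0.03 and CAH1 at -0.82 against -0.03. Caffeine larvae had 20 genes higher (12.6%) and 8 lower (5.03%) by the same rule. Called higher in both were 16 genes, which is 16 of the 36 of phenobarbital and 16 of the 20 of caffeine. Lower in both were 5 genes, Cyp310a1, Cyp311a1, Cyp316a1, Gapdh1 and GstE13, and Cyp4p3 was the 1 gene called in opposite directions.

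**Figure D5:**
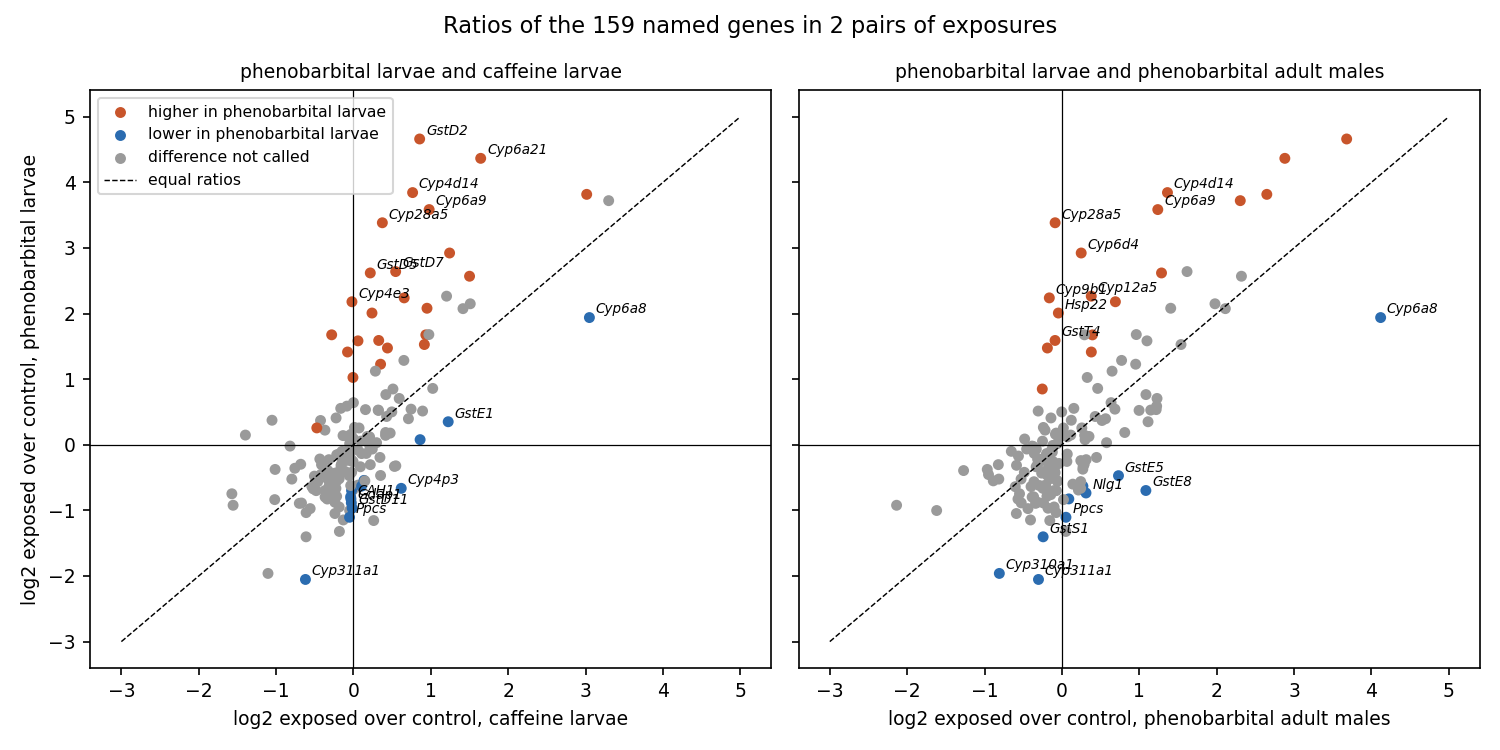
Log2 ratio of exposed over control in phenobarbital larvae (y axis) against that in caffeine larvae (left panel, x axis) and in phenobarbital adult males (right panel, x axis) for the 159 named genes; the dashed line marks equal ratios. Coloured points are genes whose ratio differed by the test of the difference, orange where higher and blue where lower in phenobarbital larvae; Cyp28a5 lies far above the line in both panels and Cyp6a8 far below it.

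The same compound in adult males gave ratios that differed from those of larvae at 28 of 159 genes (17.6%), 18 (11.3%) higher and 10 (6.29%) lower in larvae. Of the 18, 8 held in every centring, and of the 10, 2 did. The adults were exposed through a coated vial and not through food, their dose is in other units, and 3 of their 4 arrays were used, since the fourth was identical in all 1936 spots to an array of another group. Stage, sex, route and dose cannot be told apart here. Cyp28a5 was at 3.38 in larvae and -0.09 in adult males, whose arrays stood at 0.34, -0.45 and 0.31. This difference, 3.47 ± 0.23 or 11.1-fold (limma adjusted p 9.25e-13), was the largest of all genes. Cyp6d4 at 2.92 against 0.25, Cyp9b1 at 2.24 against -0.16, Hsp22 at 2.01 against -0.05 and GstT4 at 1.59 against -0.09 were likewise high in larvae and near 0 in adult males. Cyp4d14 at 3.84 against 1.36 and Cyp6a9 at 3.58 against 1.24 rose at both stages and were higher in larvae. Cyp12a5 differed as well, at 2.27 against 0.38, though its call did not hold in every centring.

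In the other direction Cyp6a8 led, at 1.94 in larvae against 4.12 in adult males, whose arrays stood at 3.53, 4.76 and 3.68. The difference was -2.18 ± 0.43 or 4.53-fold lower in larvae (limma adjusted p 0.000277), and no larval array reached the lowest adult one. GstE8 fell in larvae and rose in adult males, at -0.70 against 1.08, a difference of -1.78 ± 0.27 that held in every centring, as did that of Cyp311a1 at -2.05 against -0.30. GstE5 at -0.47 against 0.73, GstS1 at -1.40 against -0.24, Ppcs at -1.10 against 0.05, Cyp310a1 at -1.96 against -0.81 and Nlg1 at -0.73 against 0.31 completed the 8 largest. The calls of Cyp6a8 and of these 5 genes were lost on uncentred values. For Nlg1 the adult arrays 1 to 3 stood at -0.61, 1.70 and -0.71, so only array 2 lay apart from the larval ratio. Adult males had 27 genes higher (17.0%) and 2 lower (1.26%). Called higher at both stages were 22 genes, 22 of the 36 of larvae and 22 of the 27 of adult males. Cyp310a1 was called lower at both, though its adult arrays scattered, at -0.33, -2.14 and 0.18 on arrays 1 to 3.

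Against the other 6 larval exposures, each taken as 1 pool pair, the phenobarbital ratio differed at 52 of 159 genes (32.7%), 28 (17.6%) higher and 24 (15.1%) lower, by limma at an adjusted p under 0.05. Here the lone phenobarbital pair was assumed to vary like the others. The split was 31 higher and 0 lower on uncentred values, 26 and 13 after centring on all spots, 41 and 2 after centring on the ribosomal protein and Gapdh1 genes, and 14 and 2 with scaled arrays. All 28 higher calls were among the 36 genes that rose, and 21 of the 24 lower calls among the 33 that fell. Both sets of calls used the same phenobarbital arrays, so this overlap is not an independent test. The phenobarbital ratio lay above all other 6 at 46 genes (28.9%) and below all other 6 at 58 (36.5%). GstD2 was at 4.66 against -0.24 to 0.85 in the others, Cyp28a5 at 3.38 against -0.23 to 0.37, and Hsp22 at 2.01 against -0.05 to 0.36. Of the 36 genes that rose, 34 were above all other 6. As they were chosen for a high phenobarbital ratio, this count does not test how particular they are to phenobarbital. The exceptions were Cyp6a8 at 1.94 against a highest of 3.05 in caffeine larvae and GstD3 at 0.64 against a highest of 0.80. Ratios were also spread more widely in phenobarbital larvae than in any other larval group. Their SD over the named genes was 1.19 to 1.57 per array, against 0.388 to 1.16 on the arrays of the other 6 exposures.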

How the data were processed

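The authors deposited a log2 dye ratio for each of the 1936 spots on an array, and these ratios were the starting point. Limma was used upstream, per the submitters' processing notes, with no version or role given. Background correction, normalization and genome build are not given in the sources used here. A ceiling code and empty values were treated as missing. The probe annotation gave 1 symbol to 656 spots (159 genes, 155 of them with 4 spots), several to 8 and none to 1272. By gene identifier, 158 genes were found in RefSeq, which was used only for neighbours. No sequences are shown.

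The ratio of a gene was the mean of its spots, with its sign set so that exposed stood over control, and the median over named genes was subtracted on every array. Using 34 of the 36 arrays, a linear model in limma 3.58.1 (R 4.3.3) held a term for each group and a shared dye term. The array error of a gene was estimated over all groups. An array with identical values under 2 labels was left out of both groups. Differences from caffeine larvae and adult males were contrasts of this fit, and the 7 larval pool pairs gave a second fit. P-values were adjusted over all genes by the Benjamini-Hochberg method. Values on each array are given for the 14 highest and 10 lowest genes called in the same direction on all arrays, for the highest and lowest gene of each list and for 6 inducible genes of earlier literature, and the 8 largest differences each way for the contrasts. Other members of lists or clusters are named with their ratio, and Cyp4e2, Cyp4ae1, Cyp12c1 and a few more with their error. The members and lists were chosen with earlier results of these data known. Array numbers did not pair arrays across groups: as a random replicate block they gave a consensus correlation of -0.0787. The fits were tested on simulated data. Tables and figures used Python 3.11.15, pandas 2.3.3 and matplotlib 3.10.9.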

Additional observations from a re-analysis of the deposited data

Results flagged for a closer look

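Between phenobarbital and caffeine larvae, 37 genes differed by the test of the difference itself. In this contrast the log2 differences of the genes higher in phenobarbital larvae were 3.81 for GstD2, 3.08 for Cyp4d14, 3.01 for Cyp28a5, 2.72 for Cyp6a21, 2.61 for Cyp6a9, 2.40 for GstD5, 2.20 for Cyp4e3 and 2.10 for GstD7. Of the genes lower there they were -1.43 for Cyp311a1, -1.28 for Cyp4p3, -1.11 for Cyp6a8, -1.05 for Ppcs, -0.95 for GstD11, -0.87 for GstE1, -0.86 for Gdap1 and -0.79 for CAH1.

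Between larvae and adult males given phenobarbital, 28 genes differed by the same kind of test. Higher in larvae were Cyp28a5 by 3.47, Cyp6d4 by 2.67, Cyp4d14 by 2.48, Cyp9b1 by 2.40, Cyp6a9 by 2.35, Hsp22 by 2.05, Cyp12a5 by 1.89 and GstT4 by 1.68. Lower in larvae were Cyp6a8 at -2.18, GstE8 at -1.78, Cyp311a1 at -1.75, GstE5 at -1.20, GstS1 at -1.16, Ppcs at -1.16, Cyp310a1 at -1.15 and Nlg1 at -1.05.

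Spots without a single gene symbol, among them the 8 with several symbols, also carried signal that the comparisons above do not use. Of 863 such spots with a ratio on all 4 phenobarbital larvae arrays, 174 were higher and 252 lower than the median named gene, with a highest mean of 5.23. Here and in the other groups, a spot was counted if every array had the same direction and the mean reached 1.5-fold. In phenobarbital adult males, on 3 arrays, 144 of 915 were higher and 249 lower, and in caffeine larvae 144 of 766 and 166. In the 5 insecticide groups of larvae 55 to 137 were higher and 93 to 151 lower, with highest means of 2.79 to 3.74. Per the labels, the arrays carried control dilutions and spiked control RNAs, so these spots are not all fly genes. No gene among those with values on each array was flagged for a single array far from the other 3.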

How the results depend on the processing

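The 69 calls of phenobarbital larvae became 39 with a minimum of 2-fold, of which 31 were higher and 8 lower, and were 46 to 78 under the other settings that kept all 4 arrays. The 37 differences from caffeine larvae became 14 on uncentred values, 17 with scaled arrays, 23 without a dye term, 59 with a dye term for each group, 57 with array weights and 23 with a minimum of 2-fold. The 28 differences from adult males became 10 on uncentred values, 52 with a dye term for each group and 44 with array weights. The 52 differences from the other 6 larval exposures became 31 on uncentred values, with 31 higher and 0 lower, and 16 with scaled arrays, with 14 higher and 2 lower. The causes of these shifts were not tested.

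Leaving out each phenobarbital array in turn gave 60 to 63 calls, 31 to 37 differences from caffeine larvae and 25 to 32 from adult males, and leaving out each other larval exposure gave 43 to 76 differences, the highest without caffeine. With array number as a random replicate block the counts were 70, 35 and 28, and as a fixed replicate block the difference from caffeine counted 33.

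Of the genes with values given on each array, some had ratios that changed sign, among them those of Cyp4p3, RpS21 and Jhedup, which were called lower. On uncentred values and after centring on the control genes, in that order, they became 0.081 and 0.017 for sad, 0.449 and 0.384 for Cyp6a18, 0.494 and 0.430 for Cyp6d2, 0.475 and 0.411 for Cyp9f2, 0.608 and 0.543 for Cyp4d21, 0.769 and 0.705 for Cyp4e1, 0.355 and 0.291 for Cyp4ac2, 0.115 and 0.050 for Cyp4p3, 0.552 and 0.488 for se, 0.237 and 0.172 for GstT2, 0.148 and 0.084 for RpS21, and 0.637 and 0.573 for dib. After centring on all spots they became 0.058 for Cyp4d21, 0.220 for Cyp4e1, 0.003 for se and 0.088 for dib. With the ceiling value kept, Jhedup became 0.113. Further genes called lower, without values given on each array, also turned positive on uncentred values. Examples are Cyp4s3 at 0.149, CG17806 at 0.089, Cyp316a1 at 0.032 and CG4757 at 0.019, while others such as CAH1 at -0.046 stayed below 0. Without single arrays, Cyp4e1 ran between -0.063 and 0.066, dib between -0.405 and 0.105, and shd between -0.082 and 0.182. List medians that also turned positive on uncentred values were 0.24 for the CYP2 clan against -0.54 as reported, and 0.71 against -0.07 for omega GSTs. They were 0.57 against -0.21 for theta GSTs and 0.08 against -0.70 for moulting hormone synthesis. For P450s with a known endogenous role they were 0.50 against -0.28, and for small heat shock genes 0.42 against -0.36. For phtm, dib, sad and spo together they were 0.02 against -0.76. Intensities were not used here, so signal over background is not known, and 1 pool pair per exposure leaves the spread between cultures unmeasured.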
